A study of Mus musculus with 2 samples.

Results

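The array carried probes for 53 genes of the Wnt and Notch pathways and of intestinal stem cells, and the values of these genes are described here on 2 arrays. They were chosen by gene name alone: every Wnt and Frizzled gene with a numbered symbol, and 24 named receptors, stem cell markers, Notch genes and lineage factors. They make up 53 of the 22165 named genes on the array and were read by 71 probes on 89 spots. Intestinal segments of wild-type male mice had been incubated for 2 h with 0.5 µM cholic acid, a primary bile acid, or with vehicle (0.05% DMSO, 0.25% ethanol), and RNA was then taken from the epithelial cells. The titles read as small intestine (S_I), while the position along the gut and the number of mice are not given in the labels, and the solvent is given for the vehicle alone. The labels frame the study as a search for bile acid-dependent targets of PPARα, a nuclear receptor of lipid metabolism. There was 1 array per condition, so differences have no replicate check, no test was possible, and every fold compares these 2 arrays and not the 2 conditions.

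In the intestinal crypt, secreted Wnt proteins bind a Frizzled receptor together with the co-receptor Lrp5 or Lrp6, which stabilises beta-catenin and switches on genes through Tcf factors such as Tcf7l2. R-spondins bind Lgr4 and Lgr5 and strengthen the same signal, which keeps stem cells dividing at the crypt base. In Notch signalling a ligand on one cell, such as Dll1, Dll4 or Jag1, activates Notch1 or Notch2 on its neighbour, where Hes1 is switched on and Atoh1 is kept off. Cells that keep Atoh1 take a secretory fate, and Spdef, Gfi1 and Neurog3 act further along those lineages.

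The findings rest on single 60-base probes. A selection is shown here from members with large differences or with probes that gave different values. Positions are on mm9, per the file headers, and sequences are those in the deposited scanner files, 5′ to 3′ in lower case with no part marked. They were taken only from probes that can be read without a stop in at least 1 frame, so this is no property of the members' probes at large. The other Axin2 probe and another Tcf7l2 probe had 0 such frames and are not shown. Whether a probe lies in an exon or a UTR was not annotated here.
Notch1, chr2:26319440-26319499, minus strand: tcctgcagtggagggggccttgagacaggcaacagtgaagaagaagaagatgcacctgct
Wnt16, chr6:22247804-22247863, plus strand: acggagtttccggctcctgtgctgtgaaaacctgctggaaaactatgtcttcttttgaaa
Wnt16, chr6:22241135-22241194, plus strand: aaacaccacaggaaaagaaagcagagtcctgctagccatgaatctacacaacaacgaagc
Axin2, chr11:108803927-108803986, plus strand: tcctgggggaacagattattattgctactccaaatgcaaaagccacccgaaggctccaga
Tcf7l2, chr19:55994029-55994088, plus strand: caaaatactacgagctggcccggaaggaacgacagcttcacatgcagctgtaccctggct
Tcf7l2, chr19:55817272-55817331, plus strand: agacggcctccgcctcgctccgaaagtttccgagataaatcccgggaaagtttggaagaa

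Signals are given as the scanner's processed signal in arbitrary fluorescence units. A probe counts as measured on an array where the software marked it well above background, and 22612 of 55681 probes (40.6%) were so marked on both arrays. Each array was scaled to the 75th percentile of these probes, which was 1060 for vehicle and 741 for cholic acid. A gene with no difference after scaling therefore had a vehicle signal 1.43 times its cholic acid signal, so that a gene can be called higher in cholic acid with a slightly smaller signal there. All differences are on the log2 scale after this scaling, cholic acid minus vehicle. The arrays shared a slide and a scan. No spot was saturated on either array, and no member spot carried an outlier flag. The labelled cell type was checked against markers: all 12 enterocyte markers and all 8 general epithelial markers were measured on both arrays, while T cell, B cell, fibroblast and smooth muscle markers were measured too and are given further on.

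Of the 53 genes, 31 were measured on both arrays, Jag1 on the vehicle array alone, and 21 on neither. Over all named genes 55.7% were measured on both arrays and 38.8% on neither. Among the 31, 4 were higher in cholic acid by at least 2-fold (Notch1, Notch2, Wnt16 and Wnt5a) and 0 were at least 2-fold lower. Among the 12348 genes with a value on both arrays the shares were 6.47% higher and 2.07% lower, or 8.54% in either direction. The members' median difference was 0.30, with quartiles of -0.15 and 0.55, against a median of 0.08 over all genes, with quartiles of -0.22 and 0.43. Differences were positive for 20 of the 31 members and for 56.9% of all genes. The margin of the members' median over that of all genes depended on the scaling: it was 0.23 in the setting used here and 0.03, 0.02 and 0.03 after quantile normalization, after a loess on signal and in the authors' processed values, where the members' median itself was -0.04, -0.02 and -0.04. With scaling on spike-in controls, which shifted the median of all genes by -0.88, Notch1, Notch2, Wnt16, Wnt5a and Wnt11 alone stayed above 0, so positive signs below hold relative to most genes and not as amounts of RNA.

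**Figure D1:**
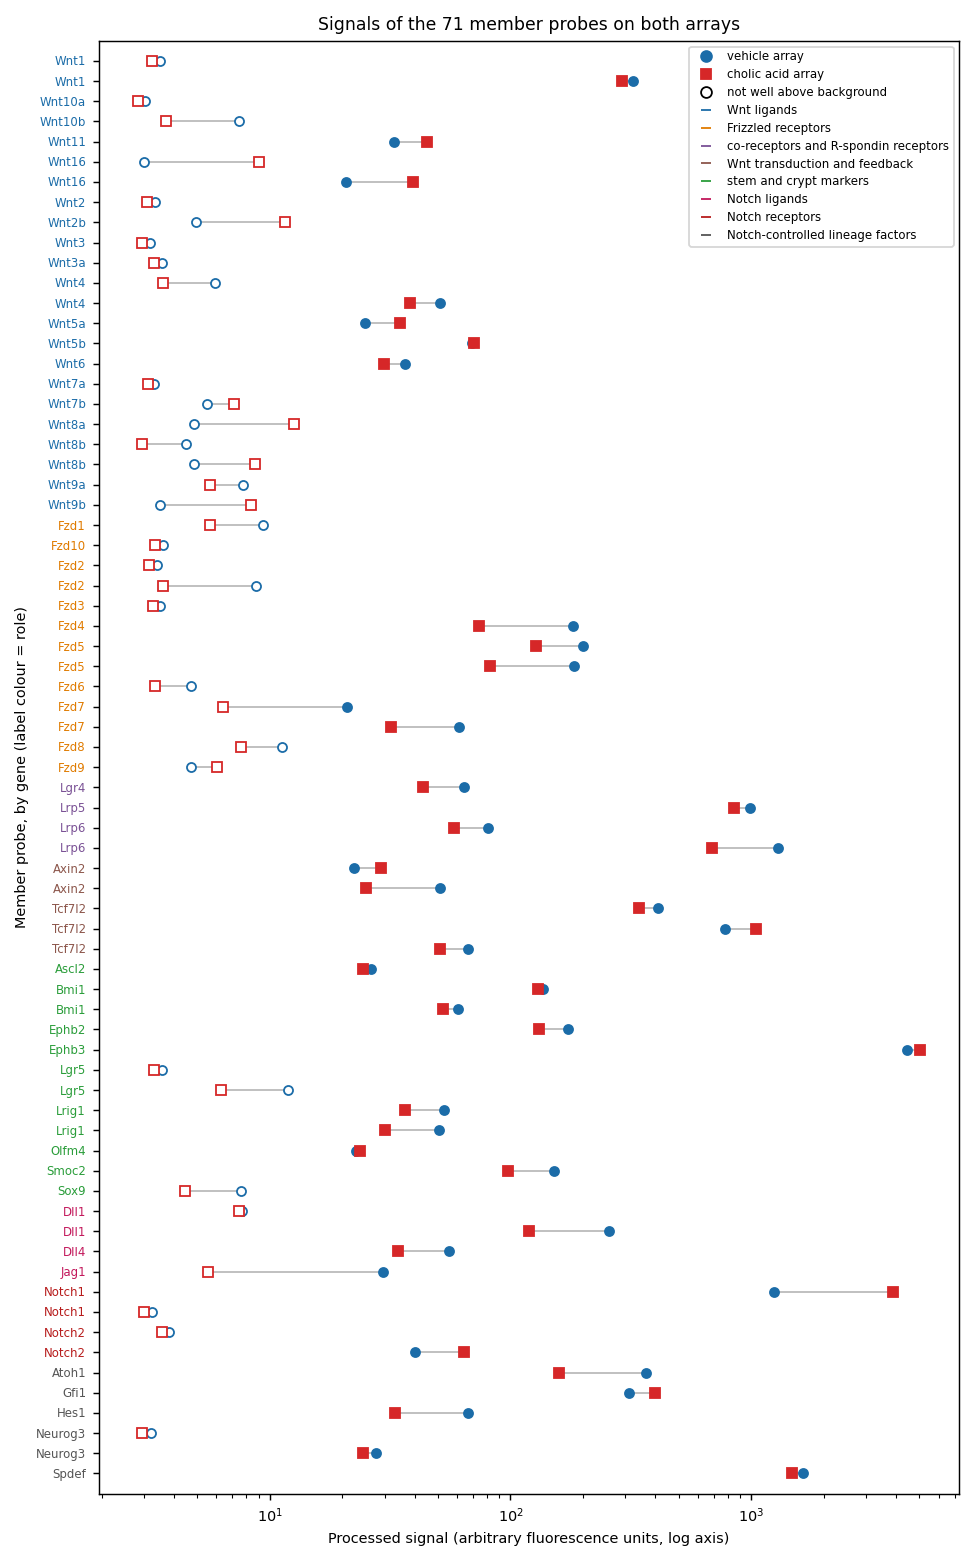
Processed signal (arbitrary units, log axis) of each of the 71 member probes on the vehicle array (circles) and the cholic acid array (squares), with open symbols where the probe was not well above background. One Notch1 probe stands at 1240 and 3870 while the other lies at background on both arrays, and 31 probes are open on both.

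Wnt ligands fell into 7 measured genes and 12 that were not. The 7 measured ligands all had positive differences in the setting used, with a median of 0.54. Their signals were dim, between 20.7 and 69.3 on the vehicle array for all but Wnt1. Wnt16, a ligand mostly studied in bone and in lymphoid cells, gave 20.7 in vehicle and 39.4 in cholic acid, a 2.72-fold difference (1.45), where the 1000 genes nearest in signal had a robust SD of 0.57. Its other probe, the second of the pair shown above, was measured on neither array, with 2.99 and 8.98. Wnt5a, made by crypt and villus mesenchyme and acting mainly without beta-catenin, gave 24.8 and 34.7 (1.00, 2.00-fold). Wnt11, of the same beta-catenin-independent group, gave 32.9 and 45.0 (0.97, 1.96-fold), so these 2 genes lie on either side of the 2-fold limit without a difference between them that a single array can resolve.

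The remaining measured ligands were less than 2-fold apart. Wnt5b, the close paralogue of Wnt5a, gave 69.3 and 70.3 (0.54), and Wnt1, a ligand best known from the developing midbrain, gave 322 and 290 (0.37) on one probe and background values of 3.50 and 3.25 on the other. Wnt6 gave 36.4 and 29.8 (0.23). Wnt4, a ligand needed in kidney and ovary development, gave 51.0 and 38.1 (0.10), with its second probe not well above background. Of the 7, 5 were positive after quantile normalization and 3 with spike-in scaling. Relative to the median of all genes all 7 stood higher in the setting used, and 5 of 7 after quantile normalization, after loess and in the authors' values, where Wnt4 and Wnt6 went below it. Wnt3, the ligand that Paneth cells supply to the crypt, was measured on neither array, nor were Wnt2, Wnt2b, Wnt3a, Wnt7a, Wnt7b, Wnt8a, Wnt8b, Wnt9a, Wnt9b, Wnt10a and Wnt10b. A probe at background does not show that the transcript was missing: several genes here had one probe well above background and another at background.

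Frizzled receptors, which bind Wnt at the cell surface, differed the other way. Of 10 genes, 3 were measured and all 3 had negative differences, except that Fzd7 turned to 0.08 with normexp background correction. Fzd4, also the receptor for norrin, gave 181 in vehicle and 74.3 in cholic acid (-0.77, 1.70-fold lower), against a spread of 0.49 among the nearest genes. Fzd5, a receptor needed by Paneth cells, gave 201 and 128 on one probe (-0.13) and 183 and 82.5 on the other (-0.63). The mean for Fzd5 was -0.38, inside a spread of 0.50 among the nearest genes. Fzd7, the main Frizzled of intestinal stem cells, gave 61.3 and 32.0 (-0.42), also inside its spread of 0.55. Its other probe gave 21.0 in vehicle and was not well above background in cholic acid, at 6.40, which bounds it at least 1.13-fold higher in vehicle. The bound sets the bright signal against the lowest signal measured on the dim array, or against the dim probe itself where that is higher. The 3 receptors lay below the median of all genes in each of 11 other settings of scaling, background correction, probe filter or probe choice. No Frizzled reached 2-fold except with the spike-in scaling. Fzd1, Fzd2, Fzd3, Fzd6, Fzd8, Fzd9 and Fzd10 were measured on neither array.

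The co-receptors and the R-spondin receptor Lgr4 differed little. Lrp5 gave 988 and 852 (0.30) and Lgr4 64.2 and 43.4 (-0.05). Lrp6 was read by 2 measured probes of opposite sign, one at 80.5 and 58.0 (0.04) and one at 1290 and 690 (-0.39), with a mean of -0.17. These values lie within the spread of the genes nearest in signal, which was 0.37 for Lrp5, 0.55 for Lgr4 and 0.41 for Lrp6.

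Tcf7l2 and Axin2 showed the largest disagreements between probes. Tcf7l2, the main Tcf factor of the intestinal epithelium, gave 781 and 1050 (0.94) on the first probe shown above, 409 and 341 (0.25) on the second, and 66.7 and 51.2 (0.13) on another, for a mean of 0.44. All 3 were positive, but by different sizes, and each probe samples a different stretch of the transcript. Axin2, a feedback inhibitor and a standard readout of beta-catenin activity, gave 22.3 and 28.9 (0.89) on the probe shown and 51.0 and 25.1 (-0.51) on another, for a mean of 0.19. The array therefore gives no single direction for Axin2. Among the 6 members with several measured probes, 2 had probes of opposite sign, Axin2 and Lrp6, where this held for 33.3% of the 3095 such genes on the array.

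**Figure D2:**
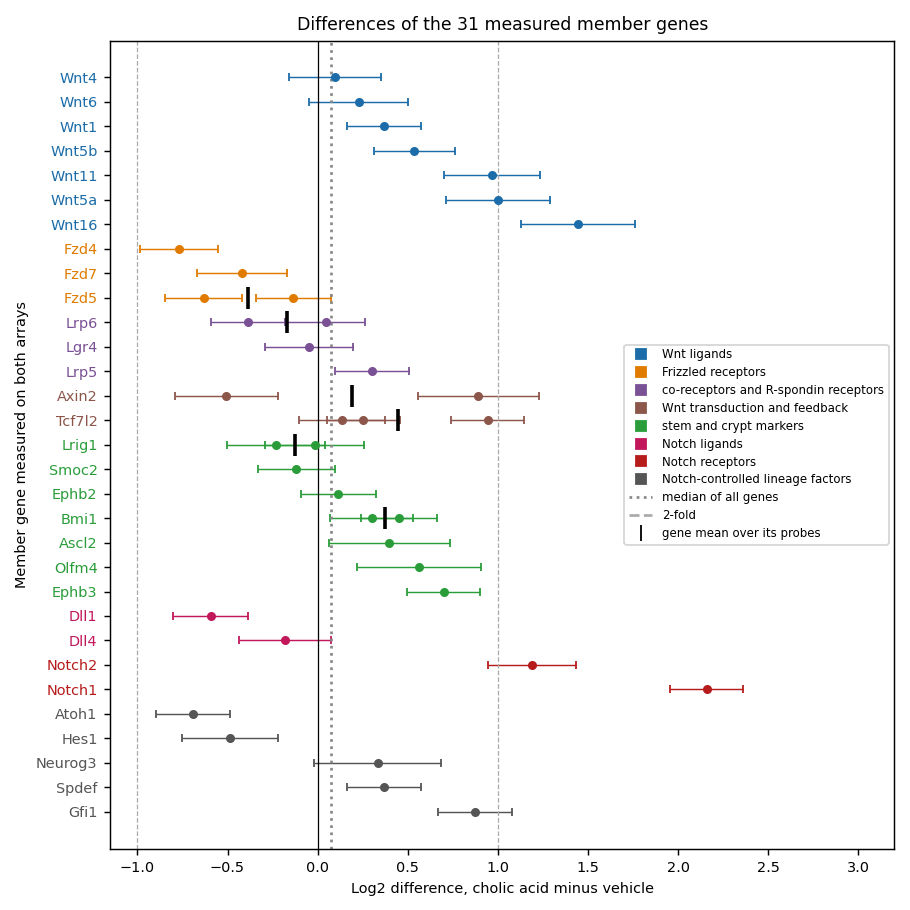
Log2 difference, cholic acid minus vehicle, of each probe of the 31 members measured on both arrays, grouped by role, with bars of 1 error from the scanner software's error model, which describes a spot and not the spread between mice. Black ticks mark gene means where a gene has several probes. Notch1 (2.16) stands farthest from 0, the 3 Frizzled genes lie left of the median of all genes, and the probes of Axin2 lie on opposite sides of 0.

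Of 9 stem cell and crypt markers, 7 were measured, none 2-fold apart, with a median of 0.38 and a range of -0.12 to 0.70. Lgr5, the defining marker of crypt base stem cells, was measured on neither array, at 11.9 and 6.28 on one probe and 3.56 and 3.32 on the other. The other crypt base markers were close to that limit or above it. Ascl2, the transcription factor that sets stem cell identity, gave 26.4 and 24.3 (0.40). Olfm4, a secreted glycoprotein of crypt base cells, gave 22.9 and 23.6 (0.56). Smoc2, an extracellular protein of the same cells, gave 151 and 97.3 (-0.12). The lowest probe signals marked well above background were 14.6 in vehicle and 13.0 in cholic acid, so Ascl2 and Olfm4 were read near the floor.

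Bmi1, a Polycomb protein used to mark reserve stem cells, gave 60.8 and 52.3 (0.30) on one probe and 136 and 130 (0.45) on the other. Lrig1, an inhibitor of ErbB receptors that marks a broad group of crypt cells, gave 50.5 and 30.1 (-0.23) and 52.8 and 36.5 (-0.02). The 2 probes of each gene had the same sign, although the second Lrig1 probe was close to 0. Ephb2 and Ephb3 are receptors that hold crypt cells in position and are switched on by Wnt. Ephb2 gave 173 and 131 (0.12), and Ephb3 gave 4440 and 5040 (0.70, 1.62-fold higher), against a spread of 0.35 among the nearest genes. The only Ephb3 probe ends in a long run of gt repeats. Whether other transcripts with such repeats add to its signal was not tested. Relative to all genes Ephb3 was higher in each of the 11 other settings, while Ephb2 lay within 0.07 of the median of all genes in each.

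Sox9, which marks crypt progenitors and Paneth cells, was spotted 10 times per array and was marked well above background at 0 of these spots on either array. Its signals ran from 3.63 to 13.4 in vehicle (median 7.87) and from 3.02 to 9.86 in cholic acid (median 4.06), and the ranges overlapped. In cholic acid 4 of the 10 spots held the software's surrogate value for signals too dim to measure. No fold is given for it.

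**Figure D3:**
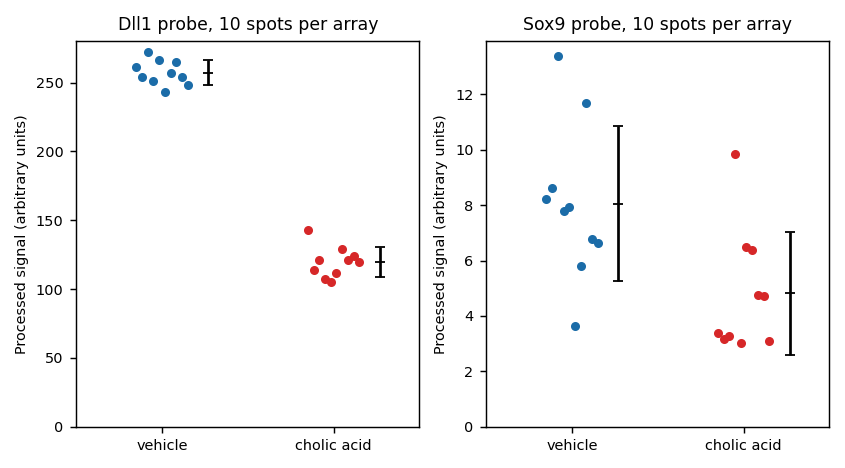
Processed signal (arbitrary units) at the 10 spots of the Dll1 probe and the 10 spots of the Sox9 probe on each array, with the mean and 1 SD over spots of that array as bars. The Dll1 spots run from 243 to 272 in vehicle and from 105 to 143 in cholic acid without overlap, whereas the Sox9 spots overlap near background.

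The 3 Notch ligands were lower in cholic acid, except that Dll4 turned to 0.16 with normexp. Dll1, a ligand of secretory progenitors, had the best measured value of all members because its probe was spotted 10 times: 257.1 ± 8.93 in vehicle and 119.6 ± 11.2 in cholic acid (SD over 10 spots of 1 array). After scaling this is -0.59, or 1.51-fold lower, and the spot values did not overlap between arrays before scaling. The SD over spots was 0.05 in vehicle and 0.13 in cholic acid on the log2 scale, which describes the printing and reading of 1 RNA and not the spread between mice. A different Dll1 probe was not well above background, at 7.69 and 7.47. Dll4, the partner of Dll1 in stem cell maintenance, gave 55.5 and 34.2 (-0.18), inside a spread of 0.56 among the nearest genes. Jag1, the ligand whose loss causes Alagille syndrome in people, gave 29.5 in vehicle and 5.54 in cholic acid, where it was not well above background, so it was at least 1.59-fold higher in vehicle. Dll1 stayed negative in each of the 11 other settings, as near 0 as -0.06 where its dim second probe was averaged in.

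The 2 Notch receptors measured here went the other way, and Notch1 had the largest difference of all 53 genes. On the probe shown above Notch1 gave 1240 in vehicle and 3870 in cholic acid, 4.46-fold higher after scaling (2.16, with a software error of 0.20), against a spread of 0.37 among the 1000 nearest genes. Of all genes measured, 0.526% had a larger difference in size. That probe lies at base 5898 of the transcript. The gene's other probe, at base 8221, was at the surrogate value on both arrays, so the Notch1 result rests on 1 spot per array with no second probe to set beside it. Notch2 gave 40.2 and 64.0 (1.19, 2.28-fold higher) on one probe, against a spread of 0.54, and its other probe was likewise at the surrogate value on both.

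Notch1 was at least 2-fold higher in each of the 11 other settings, between 1.28 and 2.19. Notch2 was positive in each but reached 2-fold in 5 of them. Wnt16 reached it in 8 of the 10 settings that measured it and Wnt5a in 2 of 10. A setting that kept only probes at least 2 times above the lowest measured signal left Wnt16 and Wnt5a unmeasured.

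The factors controlled by Notch were split. Hes1, the repressor that Notch switches on, gave 66.4 and 33.1 (-0.49), against a spread of 0.54 among the nearest genes. Atoh1, the factor that commits cells to the secretory lineages and that Hes1 represses, gave 367 and 159 (-0.69, 1.61-fold lower), against a spread of 0.42. The repressor and the gene it represses were both lower on the cholic acid array, but only Atoh1 by more than its spread. Hes1 turned to 0.08 with normexp, and Atoh1 kept its sign in each of the 11 other settings.

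Of the factors that act after Atoh1, Gfi1, which directs cells to goblet and Paneth fates, gave 312 and 400 (0.87, 1.83-fold higher), against a spread of 0.45. Spdef, which drives goblet and Paneth maturation, gave 1640 and 1480 (0.37). Neurog3, which starts the enteroendocrine lineage, gave 27.6 and 24.3 (0.33) on one probe and was at the surrogate value on its other. Gfi1 and Spdef stood above the median of all genes in each of the 11 other settings, and Neurog3 in each of the 10 that measured it, although by as little as 0.0015 after quantile normalization.

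**Figure D4:**
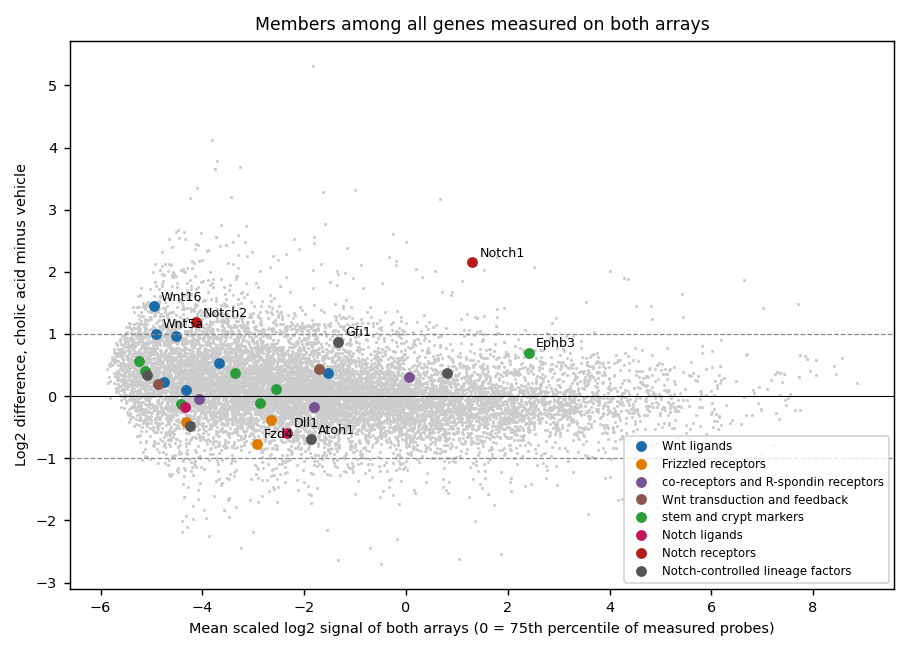
Log2 difference (cholic acid minus vehicle) against mean scaled log2 signal for the 12348 genes measured on both arrays (grey) with the 31 members coloured by role and dashed lines at 2-fold. Wnt16, Wnt5a and Notch2 lie among dim genes, where the grey cloud is wide, and Notch1 lies among bright genes, where it is narrow.

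Promoters were taken for 39 of the 53 genes from RefSeq on GRCm38.p6, as 45 windows of the 250 bases before a gene start. The core of the binding motif of Rbpj, the DNA-binding partner of Notch, was searched as TGGGAA or TTCCCA, and the core for Tcf and Lef factors as CTTTGA or TCAAAG, on both strands. The Rbpj letters were found in 6 of the 45 member windows (13.3%) and in 21.6% of all 32851 windows. The Tcf letters were found in 4 of the 45 (8.89%) and in 13.8% of all. Both shares were below those of all windows, over 45 windows only. A pair is shown with the matches in capitals, Atoh1 because it alone held 2 Tcf matches and Olfm4 because its Rbpj match lies nearest to the gene start.
Atoh1, chr6:64728875-64729124, plus strand: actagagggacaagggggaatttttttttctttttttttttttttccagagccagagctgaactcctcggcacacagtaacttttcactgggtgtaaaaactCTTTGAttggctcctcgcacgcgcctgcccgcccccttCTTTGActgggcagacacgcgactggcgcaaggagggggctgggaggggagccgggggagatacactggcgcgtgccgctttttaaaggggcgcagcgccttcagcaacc
Olfm4, chr14:80000052-80000301, plus strand: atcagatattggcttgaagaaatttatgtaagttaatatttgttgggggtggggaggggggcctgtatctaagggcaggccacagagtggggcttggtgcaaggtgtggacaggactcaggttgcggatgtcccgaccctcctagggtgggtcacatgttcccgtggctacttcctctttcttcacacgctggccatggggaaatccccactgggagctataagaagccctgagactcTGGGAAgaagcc
The Tcf matches of Atoh1 lie 148 to 143 and 110 to 105 bases before the start, and the Rbpj match of Olfm4 lies 12 to 7 bases before it. Such matches are letters in a window and not binding sites.

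The rest of both pathways was read through 7 lists with 139 genes on the array. Of these, 91 were measured on both arrays, with 8 at least 2-fold higher, 1 lower and a median of 0.18. Over all genes 6.47% were at least 2-fold higher and 2.07% lower, with a median of 0.08. Of 20 genes of Wnt secretion and extracellular control, 5 were measured (median -0.07). Wls, which carries Wnt proteins to the surface, gave 26.2 and 40.8 (2.23-fold higher). Dkk3, of the Dickkopf family, was measured in cholic acid alone, at 45.1 against 15.4, and was at least 4.19-fold higher there. All of Rspo1, Rspo2, Rspo3 and Rspo4 were not well above background on either array. Of 23 genes of receptor turnover and transduction, 17 were measured, none 2-fold apart (median -0.19, below all genes in 11 of 11 other settings). Its R-spondin receptor Lgr6 and the Wnt receptor Ror1 had bounds of at least 2.10-fold and 2.67-fold higher in cholic acid.

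Of 18 nuclear factors and targets of Wnt, 14 were measured (median 0.41, above all genes in 11 of 11 other settings). Tcf7, the Tcf factor of T cells, gave 29.5 and 67.6 (3.28-fold higher), and the cell cycle gene Ccnd1 gave 165 and 242 (2.10-fold higher). Tnfrsf19, a receptor switched on by Wnt in crypt base cells, was measured in cholic acid alone, at 71.6 against 11.5, and was at least 7.02-fold higher there. Of the 14, 9 were positive, and Sp5, a direct target picked after its value was seen, gave 428 and 155 (-0.95).

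Of 19 further Notch ligands, receptors and modifiers, 13 were measured (median 0.36), with 2 at least 2-fold higher and 1 lower. Dtx1, an E3 ligase of the Notch pathway that lymphocytes express, gave 1100 and 1540 (2.00-fold higher). The Fringe enzymes, which add sugars to Notch and change which ligand it binds, went in different directions: Mfng gave 179 and 259 (2.07-fold higher) and Rfng gave 6540 and 2280 (2.01-fold lower). Of 22 genes of Notch cleavage and nuclear action, 16 were measured, none 2-fold apart (median -0.10, below all genes in 11 of 11 other settings). The largest differences there were those of Rbpj (0.85, from probes at 0.27 and 1.44) and the Hes-related repressor Heyl (0.81, from 26.6 and 32.7).

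Of 19 other stem and crypt genes, 15 were measured (median 0.35), and Tert, the catalytic subunit of telomerase, gave 22.2 and 62.0, a log2 difference of 2.00. Of 18 secretory lineage factors, 11 were measured (median 0.25). Gfi1b, a tuft cell factor, gave 28.3 and 57.2 (2.89-fold higher) and Bhlha15, a factor of secretory cells, 31.3 and 50.4 (2.30-fold higher), while the neuronal factor Neurod2 was measured in cholic acid alone, at least 3.71-fold higher. Of the 9 genes at least 2-fold apart in these lists, Wls, Tcf7, Tert, Gfi1b and Bhlha15 gave vehicle signals from 22.2 to 31.3, as near the floor as Wnt16 and Wnt5a.

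Several members are also expressed by cells other than epithelium, Notch1 and Notch2 by lymphocytes and Wnt5a by fibroblasts and muscle, and markers of such cells differed between the arrays as well. In bulk RNA, more cells of a type and more RNA per cell cannot be told apart. Beside the counts below, 6.47% of all genes were at least 2-fold higher. Of 11 T cell markers, all were measured, 10 were positive and 5 at least 2-fold higher in cholic acid (median 0.84). Cd2 gave 32.6 and 135, Lat 207 and 753 and Gzmb 5130 and 8080, while Cd4, the only negative marker, gave 13200 and 5650 (-0.71). The summed signal of the 11 was 114265 in vehicle and 122506 in cholic acid, of which Gzma alone gave 87500 and 97600. No difference would need the vehicle sum to be 1.43 times larger. Of 8 B and plasma cell markers, 5 were measured, 4 of them at least 2-fold higher (median 1.54, summed signal 3378 and 3211), Ms4a1 was measured in cholic acid alone and Blk on neither array. Of 9 fibroblast and mesenchyme markers, 6 were measured and all were positive (median 0.60, summed signal 811 and 1091), with Dcn at 67.0 and 142. Foxl1, Pdgfra and Lum, which mark such cells too, were not well above background. Of 7 smooth muscle markers, 4 were measured (median 0.83, summed signal 824 and 725), and Des, Myh11 and Synpo2 were not well above background. The part of these cells in the values of Notch1, Notch2, Wnt5a and Wnt16 was not tested.

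Marker lists of epithelial cell types differed among themselves. The 2-fold counts here stand beside 6.47% of all genes at least 2-fold higher and 2.07% lower. The 12 enterocyte markers had a median of -0.35, with 2 positive. The 8 general epithelial markers had a median of -0.17, with 3 positive and Epcam at 14900 and 6690 (-0.64). The goblet cell median was 0.05 over 6 markers and the Paneth cell median -0.21 over 5, beside Spdef and Gfi1 above. Pla2g2a, a secreted phospholipase on the Paneth list, was measured in vehicle alone, at 346 against 12.5, and was at least 18.6-fold higher there. The 5 Paneth markers measured on both arrays ran only from -0.57 to 0.26. Why Pla2g2a stood apart from them was not tested. The enteroendocrine median was 0.56 over 9 markers, all positive, beside Neurog3. The tuft cell median was 0.95 over 4 of 6 markers, all 4 positive and 2 at least 2-fold higher, Gfi1b and Dclk1, the latter at 18.2 and 35.3. Among the other non-epithelial lists, the myeloid median was 0.27 over 5 markers and the endothelial median 0.23 over 3, and Elavl4 was the 1 nerve marker measured on both arrays (0.71). The 10 proliferation genes had a median of 0.68, 4 of them at least 2-fold higher, with Mcm5 at 104 and 174 (2.39-fold), beside the stem cell and crypt genes. In each of the 11 other settings the T cell, B cell, fibroblast, smooth muscle, enteroendocrine, tuft and proliferation medians lay above the median of all genes and the enterocyte, epithelial and Paneth medians below it, while the goblet median crossed it in 1. The myeloid and endothelial medians kept their side in 9 and 8 of the 11. The part of these lists in the members' values was not tested.

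**Figure D5:**
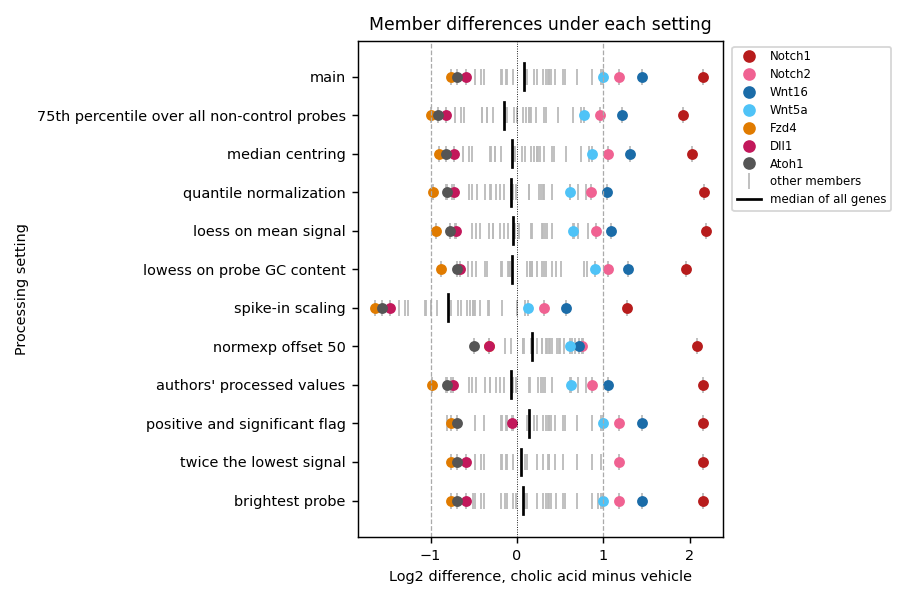
Log2 difference (cholic acid minus vehicle) of the members in the setting used (top) and the 11 others, with 7 members coloured, the rest as grey ticks, the median of all genes as a black tick and dashed lines at 2-fold. Notch1 lies beyond 2-fold in each, whereas scaling on the spike-in controls moves the whole set down with all genes.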

How the data were processed

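Cy3-labelled cRNA from 1 vehicle and 1 cholic acid sample was hybridised to Agilent arrays of design 028005 and read with Feature Extraction, version 10.7.1.1 per the file headers and 9.5.1.1 per the submitters' processing notes. Per the file headers, the deposited processed signal is an intensity from which background and spatial trends were removed, and the dimmest spots hold a surrogate value. The same deposited scanner files hold other columns, flags for each spot such as well above background. A table of the authors' own processed intensities, used as an alternative here, was deposited too. Its sorted columns were nearly identical, as quantile normalization leaves them.

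Outlier spots (124 in vehicle, 119 in cholic acid) and 3671 of 62976 spots that are controls were left out. Spots of one probe were averaged as log2 signals, and the 75th percentile over probes well above background on both arrays was subtracted. A gene's value averages those of its probes that passed on both arrays. Of the 55681 probes, 28002 were named by symbol and 3160 by a unique synonym from a RefSeq gene table. A probe that reached a member through a synonym (1) was left out, since members were matched by the name in the files. With 1 array per group no p-value or standard error was computed, and the number of arrays limits the precision. Spread is the robust SD of log2 differences over the 1000 genes closest in mean signal.

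Every member with a probe well above background on at least 1 array is named with its signals and the others by name. Of the other pathway lists, genes at least 2-fold apart or with a bound of at least 2-fold are named, otherwise the 2 with the largest difference. Of the cell type lists, at most 3 genes with the largest difference are named, except that Epcam did not have the largest difference on its list. The R-spondins, Sp5, Cd4, Gzma and the markers named as not well above background stand outside that rule and were picked after their values were seen. The values of 1 gene on the cell type lists, counted in its list, are not reported here. The members, lists and settings were chosen with earlier results of these data known. The scaling steps were tested on simulated data. Work was done in Python 3.11.15 with numpy 2.4.6, pandas 2.3.3, statsmodels 0.14.6 and matplotlib 3.10.9, and in R 4.3.3 with limma 3.58.1 for normexp.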

Additional observations from a re-analysis of the deposited data

How the results depend on the processing

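The setting used gave 4 members at least 2-fold higher and 0 lower, with a median of 0.30 and a margin of 0.23 over the median of all genes. Scaling shifted the median of all genes by -0.23 (75th percentile over all non-control probes), -0.13 (median centring), -0.14 (quantile normalization), -0.12 (loess), -0.13 (lowess on probe GC content, span 0.3), -0.88 (spike-in scaling), 0.10 (normexp with an offset of 50) and -0.15 (authors' processed values), and changes are best read relative to it. The count of higher members was 2 with the 75th percentile over all probes, after quantile normalization, after loess, in the authors' processed values and with probes at least 2 times the lowest signal. The share of all genes called higher fell too, from 6.47% in the setting used to 3.26%, 3.45%, 3.85%, 3.47% and 5.3% in these, in that order. The count of higher members was 1 with spike-in scaling (0.875% of all genes), with normexp (2.09%) and at a 3-fold limit. It was 7 of 31 at a 1.5-fold limit. With the positive and significant flag it was 7 of 42 members, where 11.5% of 15503 genes were called higher and 2.79% lower. The count of lower members was 9 with spike-in scaling, 1 with that flag and 3 at the 1.5-fold limit. The 1.5-fold limit called 17.5% of all genes higher and 7.79% lower, and the 3-fold limit 1.37% and 0.332%. The 9 lower members were Atoh1, Dll1, Dll4, Fzd4, Fzd5, Fzd7, Hes1, Lrig1 and Lrp6, in a setting that called 32.7% of all genes lower.

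The members' median was 0.074 with the 75th percentile over all probes, 0.17 with median centring, -0.042 after quantile normalization, -0.017 after loess, 0.15 after the GC lowess, -0.58 with spike-in scaling, -0.043 in the authors' processed values and 0.12 with probes at least 2 times the lowest signal, which left 25 members. Its margin over all genes was 0.026 after quantile normalization, 0.024 after loess, 0.027 in the authors' processed values and 0.065 in the setting with 25 members. The cause was not tested. Of all calls over all genes, 75.7% were higher in the setting used, 43.3% with the 75th percentile over all probes, 57.7% with median centring, 51.2% after quantile normalization, 56.8% after loess, 59.4% after the GC lowess, 2.60% with spike-in scaling and 51.2% in the authors' values. Of the values of single members under other settings, 299 moved by less than the spread of the nearest genes and 36 by more, 31 of these with spike-in scaling.

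No paired analysis was possible because each group has 1 array, so leaving out a replicate could not be done either. Signal over background limits what can be said: 31 of the 71 member probes were well above background on neither array, and Wnt16, Wnt5a, Olfm4 and Ascl2 were measured near the floor.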

Other observations

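For 5 members the files place a measured probe and one at background on the same transcript: Notch1, Notch2, Wnt1, Wnt4 and Wnt16. The measured probe lay further along the transcript in 4 of the 5, and Notch1 was the exception, with its measured probe at base 5898 and the other at base 8221.

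Some member probes lie beside probes of other genes on the opposite strand. A probe of 0610009E02Rik lies between the Notch1 probes on chromosome 2 and gave 30.1 in vehicle and 26.7 in cholic acid (0.34), far from the difference of 2.16 of Notch1. A Slc25a26 probe at chr6:94554505-94554564 overlaps the Lrig1 probe at chr6:94554523-94554582 and gave 62.1 and 35.3 (-0.30), where that Lrig1 probe gave 50.5 and 30.1 (-0.23). Probes of Ccnyl1, on the strand opposite Fzd5 and within 10000 bases of it, gave differences of 0.00, -0.47 and 0.10. The part of overlapping transcripts in the members' values was not tested.

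In the authors' deposited table, quantile-normalized values of the Notch1 probe were 1057 in vehicle and 4727 in cholic acid (log2 difference 2.16), those of the Notch2 probe 38.1 and 69.4 (0.86), and those of the measured Wnt16 probe 20.2 and 41.9 (1.05). The Jag1 probe stood at 28.3 and 5.21 there.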
